A study of Homo sapiens with 2 samples.

Results

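The CCR4-NOT complex is the main cytoplasmic deadenylase of human cells, the machine that shortens the poly(A) tails of mRNAs. The mRNAs of 10 genes of this complex were followed here, chosen by name. CNOT1 encodes the scaffold, CNOT2 and CNOT3 the module that gives the complex the NOT part of its name, CNOT6, CNOT6L, CNOT7 and CNOT8 the exonucleases, CNOT10 and CNOT11 the module at the N terminus of CNOT1, and CNOT4 an E3 ubiquitin ligase. All 10 genes were measured, by 42 of the 44988 array features (probe sets) that carried 1 gene symbol and that covered 18132 genes.

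SW480 cells, a line from a human colorectal carcinoma, were lysed, and the RNA bound to the protein QKI was precipitated with an antibody against it and hybridised to PrimeView arrays. One array held RNA of cells given siRNA against the long noncoding RNA NONHSAT136151 (siLnc), and the other held RNA of cells given control siRNA (siNC). Both received 100 pmol of siRNA and were collected at 48 h. No probe set carried the name NONHSAT136151, so its silencing was not checked on the arrays. With 1 array per condition there was no replicate check, no p-value could be given, and the number of arrays limited the precision of every value.

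Removal of the poly(A) tail is usually the step that commits an mRNA to decay, since decapping and exonucleases follow it. The complex holds a pair of nuclease types. CNOT6 and CNOT6L are alternative subunits related to yeast Ccr4, and CNOT7 and CNOT8 are alternative subunits related to yeast Caf1, through which the Ccr4 type joins the scaffold. RNA-binding proteins bring the complex to chosen mRNAs. QKI is itself an RNA-binding protein of the STAR family that regulates splicing and mRNA stability. The comparison asked whether the amount of each CCR4-NOT mRNA recovered with QKI differed after NONHSAT136151 was silenced. Neither input RNA nor IgG precipitates were analysed here. Altered recovery and an altered mRNA level in the cells cannot be told apart on these arrays, nor can fewer cells and less RNA per cell.

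The siRNAs are the reagents that set the arrays apart, and the study's oligonucleotide list gives them as follows. Capitals mark the TT at the end of the targeting RNA, the only T letters in it.
si-NON-1: uaggcaugguuagcguggucggaauTT
si-NC: ttcttacacaatagccagg
A second targeting siRNA, si-NON-2, carries in that list the same 19 letters as si-NC. The sources used here do not state which targeting siRNA the siLnc cells received.

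A few facts of the whole series bear on every value. Signals are on the log2 scale the authors deposited. The median log2 signal was 3.29 in siLnc and 3.32 in siNC. A background signal was set at 4.67, below which lay 95% of the siNC log2 signals of 93 probe sets for 36 genes typical of other cell types. The same percentile in siLnc was 4.35, and 31 of the 36 genes were lower in siLnc, with a median difference of -0.20. A probe set is called above background where at least 1 array exceeded the siNC value of 4.67. The epithelial markers EPCAM, KRT8, KRT18, KRT19, CDX2 and ASCL2 lay above it on both arrays, whereas CDH1, VIL1, CDX1 and LGR5 did not on either. CDX2 had 6.22 in siLnc and 7.17 in siNC (-0.95), and ASCL2 had 6.71 in siLnc and 7.63 in siNC (-0.92). EPCAM and the keratins differed by -0.18 to 0.10. Of 22 measured gland genes, 16 lay above a log2 difference of 0 and 6 below. Of the 22, 11 were at least 2-fold higher in siLnc, against 0.651% of all genes. The log2 of the signal summed over all 22 was 11.85 in siLnc and 10.45 in siNC. The 11 were TCN1, LTF, PIGR, PRB3, SLPI, ZG16B, PIP, BPIFB1, LYZ, STATH and BPIFA1, with log2 differences from 1.77 (TCN1) to 6.83 (BPIFA1). The salivary gene STATH had 8.14 in siLnc and 1.88 in siNC, whereas the salivary genes HTN1 (1.29 in siLnc and 1.58 in siNC) and MUC7 (1.61 in siLnc and 1.55 in siNC) lay below the background signal in both. The gland genes CST1 (8.32 in siLnc and 8.86 in siNC) and CST4 (5.81 in siLnc and 6.21 in siNC) lay above that signal in both and were lower in siLnc. Of 4 measured blood genes, HBB was at least 2-fold higher in siLnc (2.69) and ALAS2 differed by -0.44. The log2 of the summed blood signal was 7.78 in siLnc and 6.30 in siNC. All 18 hybridization control probe sets were lower in siLnc, with log2 differences from -1.30 to -0.20. The part of these shifts in the values of CCR4-NOT genes was not tested.

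As the mean over its probe sets, none of the 10 CCR4-NOT genes reached a 2-fold difference in either direction. The shares of all genes that did so were 0.651% higher in siLnc and 0.121% lower, or 118 and 22 genes. After quantile normalization these were 68 higher and 35 lower, and after cyclic loess 85 and 33. At a 1.5-fold threshold, CNOT8 was the member that was higher and CNOT3 the member that was lower, against a background of 4.26% and 1.75% of all genes. Of the 10 genes, 8 lay above a log2 difference of 0, CNOT3 lay below it and CNOT7 at 0.00. Among the 8, CNOT1, CNOT2 and CNOT4 changed sign under some alternative settings, so no direction is read from these genes. Over all genes, 39.2% lay above 0. Among the 42 probe sets, 3 reached 2-fold in the direction of siLnc and 0 in the other, where the shares over all probe sets were 1.53% and 0.187%. Of the same 42, 25 lay above 0, 11 below and 6 at exactly 0.00, with 41.2% of all probe sets above 0. Probe sets of 1 gene share their mRNA and their arrays and are not replicates.

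**Figure D1:**
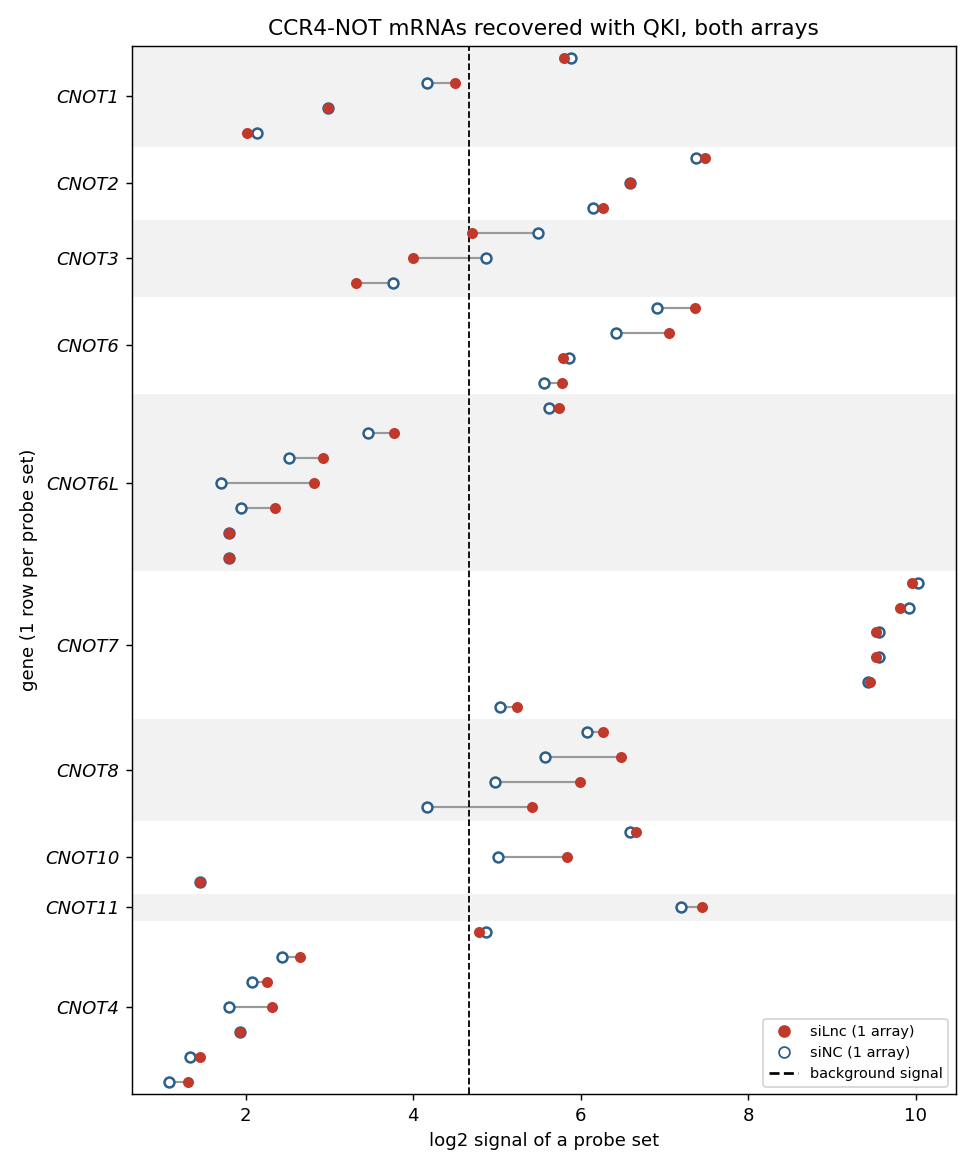
Log2 signal (x axis) of each of the 42 CCR4-NOT probe sets, 1 row per probe set grouped by gene, with filled red points for the siLnc array, open blue points for the siNC array and a dashed line at the background signal of 4.67. The CNOT8 points of siLnc lie right of those of siNC in all 4 rows, the CNOT3 points lie left of them in all 3, and 5 of the 6 CNOT7 rows sit above 9 with nearly overlapping points.

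The Caf1-type nucleases differed from each other by 0.84 as means over probe sets, a gap that was smaller between their brightest probe sets. CNOT8 is read by 4 probe sets, and all 4 were higher in siLnc. The probe set 11746336_a_at had a log2 signal of 5.42 in siLnc and 4.16 in siNC, a difference of 1.26. A second, 11749819_x_at, had 5.99 in siLnc and 4.98 in siNC, a difference of 1.01. For these CNOT8 readings the siNC signal was below or close to the background signal, so the size of the differences is not exact. The brighter 11742949_a_at had 6.48 in siLnc and 5.58 in siNC, which is 0.90 higher. The brightest by the mean of both arrays, 11742950_s_at, had 6.27 in siLnc and 6.08 in siNC, only 0.19 higher. As the mean over probe sets, CNOT8 had 6.04 in siLnc and 5.20 in siNC, a log2 difference of 0.84 or 1.79-fold, and 98.6% of all genes had a lower difference.

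The CNOT8 value therefore rested on the probe sets used. In Affymetrix naming, the ending _a_at marks probes that read several transcripts of 1 gene, and _s_at and _x_at mark probes that other transcripts may share or that may cross-hybridise. Without the _s_at and _x_at probe sets the difference was 1.08, past 2-fold, whereas the brightest probe set alone gave 0.19. After cyclic loess between the arrays it was 0.74 and after quantile normalization 0.70. Among probe sets within 0.5 of its mean signal, 1.15% had a higher difference than the CNOT8 probe set at 1.26, and 45.7% had a higher one than that at 0.19.

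CNOT7, the other Caf1-type nuclease, was the brightest member and, in the values as deposited, lay at the same level on both arrays. Its 6 probe sets averaged 8.92 in siLnc and 8.92 in siNC, a mean log2 difference of 0.00. The brightest had 9.96 in siLnc and 10.03 in siNC, and the next 9.82 in siLnc and 9.92 in siNC. A pair of CNOT7 probe sets carried identical values, 9.53 in siLnc and 9.56 in siNC each, and another had 9.46 in siLnc and 9.43 in siNC. The dimmest had 5.24 in siLnc and 5.04 in siNC. The 6 differences ran from -0.10 to 0.20, where probe sets of like signal had median differences from 0.11 to 0.13. The mean difference of CNOT7 was -0.11 after cyclic loess and -0.12 after quantile normalization. The 4 CNOT8 differences ran from 0.19 to 1.26. The mean difference of CNOT8 exceeded that of CNOT7 by 0.84, and by 0.26 between their brightest probe sets. Both genes were read on the same arrays, so a shift equal at all signals does not enter this contrast. A shift that varies with signal can enter it, because most CNOT7 probe sets were brighter than those of CNOT8. The contrast has no replicate.

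As means over probe sets, the Ccr4-type nucleases were each slightly higher in siLnc, below the 1.5-fold threshold. CNOT6 had 6.50 in siLnc and 6.19 in siNC as the mean of 4 probe sets, a difference of 0.31. All 4 lay above background, and they differed by 0.46, 0.63, -0.07 and 0.22 in order of signal. Its brightest had 7.37 in siLnc and 6.91 in siNC, and the one with the largest difference 7.05 in siLnc and 6.42 in siNC. After quantile normalization the CNOT6 difference was 0.15. Probe sets of like signal to those of CNOT6 had median differences from 0.13 to 0.16. CNOT6L, its paralogue, had 3.03 in siLnc and 2.69 in siNC over 7 probe sets, a difference of 0.33. This mean came mostly from dim probe sets: 1 of the 7 lay above background, with 5.74 in siLnc and 5.62 in siNC, a difference of 0.12. Probe sets of like signal to that CNOT6L probe set had a median difference of 0.13. The CNOT6L probe set that reached 2-fold (1.11) had 2.82 in siLnc and 1.71 in siNC, both below background, so its size is not exact. The other CNOT6L probe sets had differences from 0.00 to 0.40. The gene means of CNOT6 and CNOT6L were 0.02 apart, but their brightest probe sets were 0.34 apart, so the size of the gap depended on the probe sets used.

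**Figure D2:**
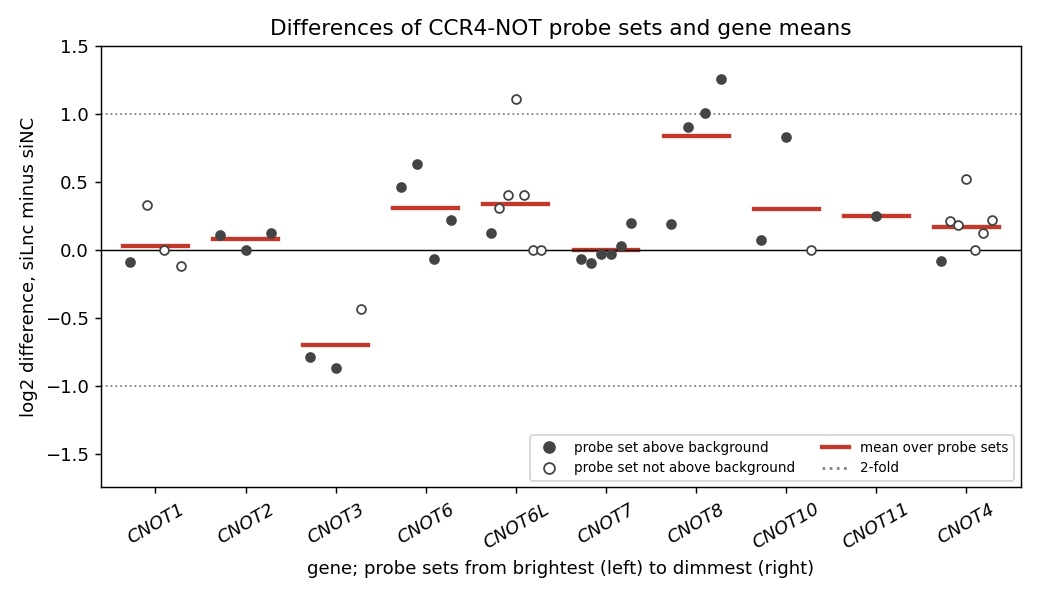
Log2 difference of siLnc minus siNC (y axis) of each probe set, by gene (x axis) and ordered from brightest to dimmest within a gene, with filled points above background, open points not above it, a red bar for the mean over probe sets and dotted lines at 2-fold. The bars of CNOT8 (0.84) and CNOT3 (-0.70) stand apart from those of the other 8 genes, which lie between 0.00 and 0.33.

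In the NOT module, which pairs CNOT2 with CNOT3 at the C-terminal end of the scaffold, the partners differed from each other. CNOT3 was lower in siLnc in all 3 probe sets. Its brightest, 11748663_x_at, had 4.70 in siLnc and 5.49 in siNC (-0.79), the next, 11748662_a_at, had 4.00 in siLnc and 4.87 in siNC (-0.87), and 11722624_a_at had 3.32 in siLnc and 3.76 in siNC (-0.44). The mean of CNOT3 was 4.01 in siLnc and 4.71 in siNC, a log2 difference of -0.70, and 0.651% of all genes had a lower one. In siLnc its signals lay close to or below the background signal, so the size of the CNOT3 difference is not exact. Over the alternatives it ran from -0.83 to -0.66. Among probe sets of like signal, 0.594% had a lower difference than the CNOT3 probe set at -0.87 and 0.70% a lower one than that at -0.79.

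CNOT2 had 6.78 in siLnc and 6.71 in siNC over 3 probe sets, all above background, a difference of 0.08. Individually these had 7.49 in siLnc and 7.38 in siNC, then 6.59 in both, then 6.27 in siLnc and 6.15 in siNC. The 3 differences ran from 0.00 to 0.12, and the 3 of CNOT3 from -0.87 to -0.44. This CNOT2 mean was -0.06 after cyclic loess and -0.09 after quantile normalization, so no direction is read from it. The mean difference of CNOT2 exceeded that of CNOT3 by 0.78, and by 0.90 between their brightest probe sets.

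CNOT1, on which the other subunits assemble, had 3.83 in siLnc and 3.80 in siNC over 4 probe sets, a mean difference of 0.03. The 1 CNOT1 probe set above background had 5.80 in siLnc and 5.89 in siNC, a difference of -0.09. The other 3 differed by 0.33, 0.00 and -0.12. The sign of the CNOT1 mean changed with the probe sets used, so no direction is read here either.

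Of the N-terminal module, which docks on CNOT1 away from the nucleases, both genes lay slightly above 0. CNOT10 had 4.65 in siLnc and 4.35 in siNC over 3 probe sets, a difference of 0.30. Its probe sets disagreed: the brightest had 6.66 in siLnc and 6.59 in siNC (0.07), the next 5.84 in siLnc and 5.01 in siNC (0.83), and the dimmest 1.45 in both. CNOT11 is read by 1 probe set, of the _s_at type, with 7.45 in siLnc and 7.20 in siNC, a difference of 0.25. Among probe sets of like signal the median difference was 0.15, and 59.3% lay below that of CNOT11.

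CNOT4, a ubiquitin ligase that in human cells is not stably bound to the complex, was the dimmest member. It had 2.39 in siLnc and 2.22 in siNC over 7 probe sets, a difference of 0.17. The 1 CNOT4 probe set above background had 4.79 in siLnc and 4.87 in siNC, a difference of -0.08. The other 6 had log2 signals between 1.09 and 2.65 and differences from 0.00 to 0.52. The sign of CNOT4 therefore depended on probe sets that lay below background, and no direction is read from it.

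CNOT9, a core subunit outside the 10 chosen genes that contacts proteins recruiting the complex, was higher in siLnc in all 4 of its probe sets. Their log2 signals were 7.59, 6.06, 5.57 and 5.39 in siLnc, against 7.11, 5.41, 4.88 and 4.98 in siNC, all above background. The mean difference of CNOT9 was 0.56, below 1.5-fold, and its probe sets ranged from 0.41 to 0.69.

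The median over the 10 CCR4-NOT genes was a log2 difference of 0.21, and that over all genes was -0.06. The gap varied with the setting. With the brightest probe set of each gene the median was 0.09 over the 10 genes and -0.06 over all genes, and after quantile normalization it was 0.13 over the 10 genes and -0.04 over all genes. With the probe sets above background it was 0.10 over the 10 genes and 0.11 over all genes, although that filter keeps a probe set through whichever array is higher. Over all probe sets the median difference was -0.13 at mean signals from 2 to 3 and 0.16 from 6 to 7, so a member is read against probe sets of its own brightness. For the CNOT10 probe set at 0.83, 6.40% of probe sets of like signal had a higher difference. For the brightest CNOT10 probe set, at 0.07, that share was 59.1%.

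**Figure D3:**
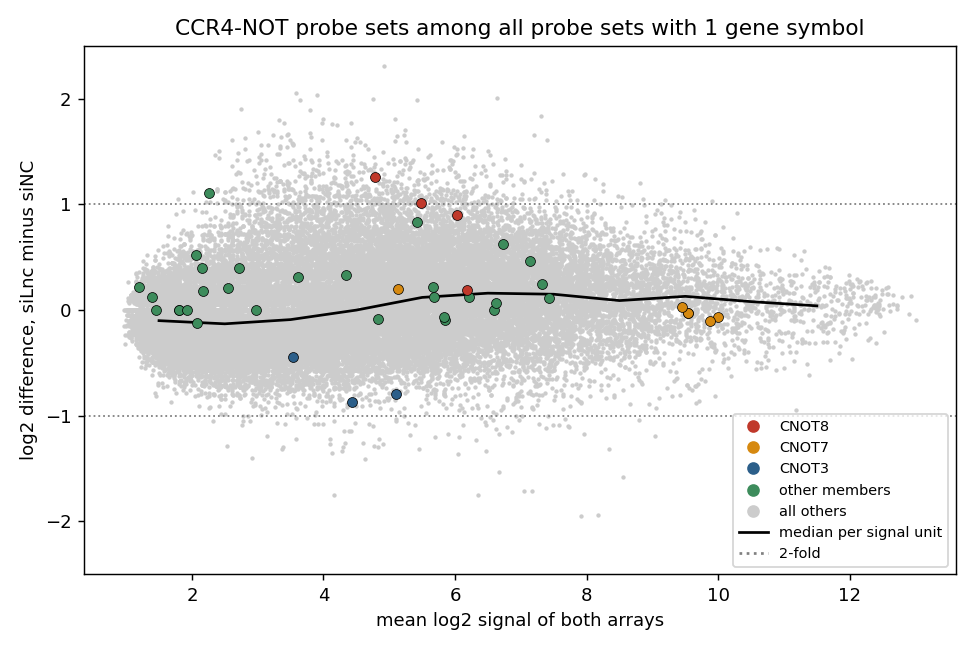
Log2 difference of siLnc minus siNC (y axis) against the mean log2 signal of both arrays (x axis), with all probe sets of 1 gene symbol in grey (12 lie outside the plotted range), their median per signal unit as a black line and dotted lines at 2-fold. Of the 4 CNOT8 points (red) 3 lie near or above the upper 2-fold line, the 3 CNOT3 points (blue) lie below 0, and 5 of the 6 CNOT7 points (orange) lie close to 0 at the bright end.

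Other genes of mRNA decay were set beside the complex. The study drew RNA degradation as a pathway from the same arrays, so neither these lists nor the CCR4-NOT genes, which belong to that pathway, are independent evidence of a direction. Across 5 lists of 9, 19, 18, 16 and 12 measured genes, 0 genes reached 2-fold in either direction as the mean over probe sets. The shares over all genes were only 0.651% higher in siLnc and 0.121% lower, so nothing is read from this 0. With only probe sets above background, PDE12, TNRC6A and DCP2 reached 2-fold, as did 177 of all 8645 genes left in the direction of siLnc. That filter can keep a probe set through its higher array alone, so nothing is read from these calls. The median difference of all probe sets was 0.00 at mean signals from 4 to 5 and 0.12 from 5 to 6. Of the 9 other deadenylases, 5 lay above 0 and 4 below, with a median of 0.09, while 39.2% of all genes lay above 0. PDE12, which removes poly(A) from mitochondrial RNA, had 5.09 in siLnc and 4.34 in siNC (0.76), with 3 probe sets from 0.21 to 1.21. ANGEL1, of the Ccr4 family, had 3.04 in siLnc and 3.40 in siNC, both below background (-0.37).

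Among 19 measured of 22 listed adaptors, which bring CCR4-NOT to mRNAs, 7 lay above 0 and 11 below, with a median of -0.08. These values were near those of all genes, of which 39.2% lay above 0 with a median of -0.06. TNRC6A, which links microRNA-loaded Argonaute to the complex, had 4.66 in siLnc and 3.89 in siNC (0.77), with 4 of its 6 probe sets between 0.81 and 1.81 and the other 2, both below background, at -0.14. BTG3, of the BTG and TOB family that binds the Caf1-type nucleases, had 8.15 in siLnc and 8.80 in siNC (-0.65) in 1 probe set.

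For decapping and decay from the 5' end, 15 of 18 genes had a positive difference (median 0.20). DCP2, the decapping enzyme, had 4.20 in siLnc and 3.40 in siNC (0.81) over 5 probe sets that ranged from -0.13 to 1.99, and its brightest gave 1.66. Both DCP2 means lay below the background signal, which makes 0.81 an inexact size. EDC3, which promotes decapping, had 4.97 in siLnc and 4.48 in siNC (0.49). In the exosome and SKI complex, which degrade RNA from the 3' end, 15 of 16 genes had a positive difference (median 0.32). Over all genes, 39.2% lay above 0. As means, 14 of the 18 decapping genes and 12 of these 16 lay above background. The median over all probe sets was 0.12 at mean signals from 5 to 6 and 0.16 from 6 to 7. The part of this signal trend in the counts was not tested. The exosome subunits EXOSC2 (6.22 in siLnc and 5.56 in siNC) and EXOSC9 (7.13 in siLnc and 6.47 in siNC) each differed by 0.66. The 2 probe sets of EXOSC2 gave 0.28 (the brightest) and 1.04, and the 3 of EXOSC9 ran from 0.40 to 0.90. For poly(A)-binding proteins and poly(A) polymerases, 8 of 12 lay above 0, with a median of 0.17. The poly(A) polymerases TENT2 (4.75 in siLnc and 4.31 in siNC, 0.45 higher) and PAPOLA (6.86 in siLnc and 6.52 in siNC, 0.34 higher) had the largest differences of that list. The 10 probe sets of PAPOLA ranged from -0.20 to 0.98, and its brightest gave -0.10.

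**Figure D4:**
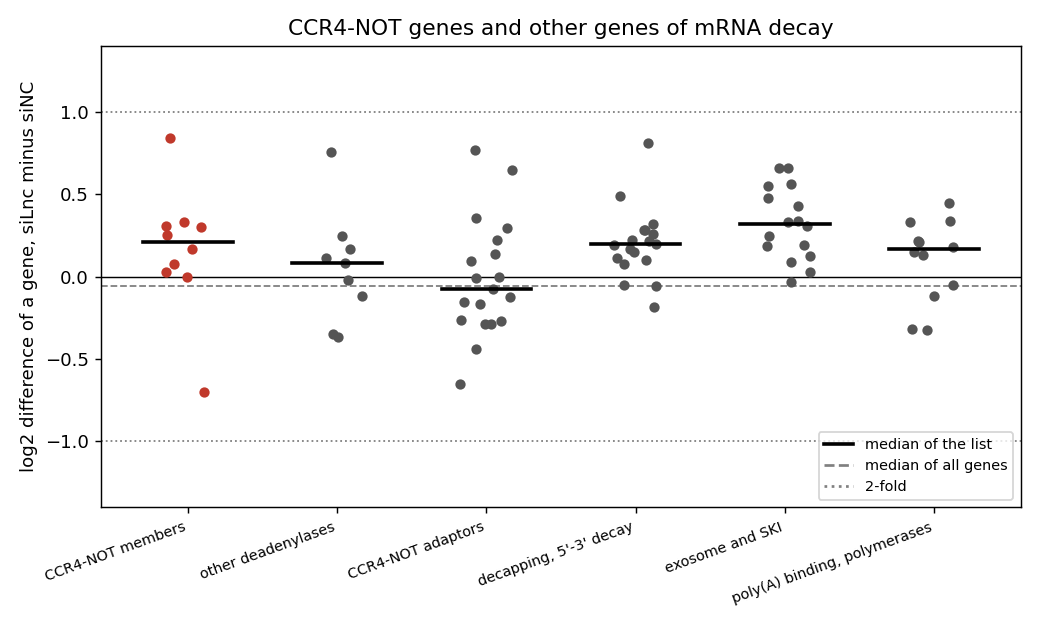
Log2 difference of siLnc minus siNC (y axis) of each gene, as the mean over its probe sets, for the 10 CCR4-NOT genes (red) and 5 lists of other mRNA decay genes (grey), with a black bar at each median, a dashed line at the median of all genes (-0.06) and dotted lines at 2-fold. No gene of any list reaches 2-fold, and the medians run from -0.08 for the adaptors to 0.32 for the exosome and SKI complex.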

How the data were processed

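RNA recovered with QKI was measured on 1 siLnc and 1 siNC array, grouped by the sample titles. The authors deposited log2 signals with 2 decimals, 1 per probe set. The scale was taken from the values, and the processing notes name GCOS. The sources used here do not give background correction, summarisation, normalization or genome build, so no coordinates are printed. Scaling between arrays can remove a shift of all mRNAs together.

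Of 49371 rows, 79 controls were left out. Probe sets with several symbols (1832) or none (2472) entered no gene. The siNC value was subtracted from the siLnc value, and the differences of the probe sets of 1 gene were averaged. RefSeq identifiers changed 0 symbols. The methods state a 2-fold threshold for another array of the study and none for this one.

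All members were named. From each other list, genes past 2-fold were named or, where fewer than 2 passed, those with the 2 largest absolute differences (OLIG2, at -0.60, and SLC17A7, at -0.53, among the genes of other cell types). Single probe sets, HTN1, MUC7, CST1, CST4 and SW480 markers beside CDX2 and ASCL2 were picked for description after their values were seen. The members and lists were chosen with earlier results of these data known. Alternatives were other scalings (limma 3.58.1, R 4.3.3), filters, thresholds and choices of probe set. The steps were tested on simulated data (Python 3.11.15, numpy 2.4.6, pandas 2.3.3).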

Additional observations from a re-analysis of the deposited data

How the results depend on the processing

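No paired analysis was possible because each condition had 1 array. The count of 0 CCR4-NOT genes at least 2-fold higher in siLnc held under quantile normalization, cyclic loess, median centring, a filter on brighter probe sets, the brightest probe set and a 3-fold threshold. It was 1 (CNOT8) at 1.5-fold and 1 (CNOT8, 1.08) without _s_at and _x_at probe sets, where all genes gave 773 of 18132 and 146 of 16701. The 3 probe sets at least 2-fold higher stayed 3 after median centring. They became 2 after quantile normalization, after cyclic loess, under the filter on brighter probe sets and with probe sets above background. The count was 6 at 1.5-fold, where 2 others were lower, 0 at 3-fold and 1 without _s_at and _x_at probe sets. Shares of all probe sets under these settings are not given here, so nothing is read from the changes. The median of 0.21 was 0.09 with the brightest probe set and 0.10 with probe sets above background, an alternative chosen after seeing the data. It was 0.13 after quantile normalization and 0.14 after cyclic loess.

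The alternatives for the other decay genes were also chosen after seeing the data. The count of 0 at least 2-fold higher was 6 at 1.5-fold, where all genes gave 773 of 18132. BTG3 (-0.65) was lower at that threshold. The count was 3 under the filter on brighter probe sets and 3 with probe sets above background (PDE12, TNRC6A and DCP2 in both). All genes gave 185 of 11515 and 177 of 8645 there, against 118 of 18132 as deposited. With the brightest probe set the count was 2 (TNRC6A and DCP2), where all genes gave 200 of 18132. Without _s_at and _x_at probe sets it was 1 (EXOSC2), where all genes gave 146 of 16701. It was 0 under the other 4. Signal limits these values: 17 of the 42 CCR4-NOT probe sets were above background on neither array. CNOT3, CNOT6, CNOT6L, CNOT8, CNOT10 and CNOT11 kept their sign under every alternative run, while CNOT1, CNOT2 and CNOT4 changed sign under 2, 2 and 3 of 7, and CNOT7, at 0.00, ran from -0.12 to 0.03. CNOT11 has 1 probe set, of the _s_at type, and gave no value without that type.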

Other observations

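Exact ties between the arrays were frequent. Of 49292 probe sets, 4471 (9.07%) had the same log2 signal in siLnc and siNC to 2 decimals, whereas 147 differed by 0.01 and 129 by -0.01. At mean signals from 1 to 2, 2136 of 11804 were tied, and 2 and 1 differed by 0.01 and -0.01. From 9 to 10, 5 of 751 were tied, and 12 and 5 differed by 0.01 and -0.01. Among CCR4-NOT probe sets 6 of 42 were tied, of CNOT1, CNOT2, CNOT4, CNOT6L (2) and CNOT10, and 0 differed by 0.01 in either direction. The cause was not tested.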
